A study of Magallana angulata with 9 samples.

Results

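The genes described here are 150 transcripts of Portuguese oyster D-larvae that were higher after cryopreservation in at least 1 pool of larvae and lower in at least 1 other. For each gene, the log2 CPM of the fresh library was subtracted from that of the cryopreserved library of the same pool. CPM are counts scaled to the total of the library, corrected for its make-up by the TMM factor described below. Of the 28372 genes listed, 17047 had at least 10 counts in every library and a mean of at least 50 counts, and are called eligible. Of these, 478 (2.8%) had a difference over 0.5 in 1 pool or more and under -0.5 in another, which is called opposed. The members are the 150 opposed genes with the largest range, the highest of the 3 differences minus the lowest. The fresh and cryopreserved libraries thus chose the members, and their values in these libraries are a description. The exposed libraries entered the choice only through the count limits and the scaling. The ranges of the members ran from 1.78 to 5.03 on the log2 scale, with a median of 2.18. The limit of the list is not a break in the data, since the last member had a range of 1.780 and the first gene left out one of 1.778.

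Libraries came from 3 pools of Crassostrea angulata D-larvae, each raised from 3 males and 3 females and collected about a day after fertilization. Each pool was split over 3 conditions. Fresh larvae were concentrated in filtered seawater. Cryoprotectant exposed larvae spent 3 min at 4 °C in 10% dimethyl sulfoxide, 1% polyvinylpyrrolidone and 0.2 M sucrose and were then diluted in seawater. Cryopreserved larvae were loaded in the same solution into 0.5 mL straws holding 30000 larvae, frozen and stored for 2 months in liquid nitrogen. They were then thawed for 10 s in water at 37 °C and recovered for 1 h in seawater. Every library is whole larvae from a mixed cross, so fewer cells of a type and less RNA per cell cannot be told apart. The recovery bath and the storage cannot be told apart from freezing. Pools are numbered by the replicate number in the labels. There was 1 library per pool and condition, and the difference in a single pool therefore has no replicate error. Only its counting error can be given.

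The D-larva is the first shelled stage of an oyster, a swimming larva with a straight hinge, which feeds and moves with a ciliated velum. Dimethyl sulfoxide enters cells and lowers the amount of ice formed at a given temperature, while sucrose and polyvinylpyrrolidone stay outside and draw water out of cells before freezing. Larvae of different parents can differ in transcript levels before any treatment, through inherited variants, maternal RNA or small differences in developmental timing. The genes are listed by NCBI gene numbers of Crassostrea gigas, a close relative. None of the numbers occurs in the Crassostrea angulata gene table used here (0 matched), so no names, roles, pathways or sequences could be given to the members.

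The estimated counts summed to between 22367780 and 45990672 per library, and the 3 cryopreserved libraries were the smallest. Cryopreserved pool 2 had the fewest genes with 10 counts or more, 19477, and in the study the lowest mapping rate of the 9 libraries. The TMM factor, which corrects for the make-up of a library, ran from 0.880 in cryopreserved pool 2 to 1.14 in fresh pool 3. The 20 most abundant genes held 19.4% of the counts in cryopreserved pool 2, the highest of the 9 libraries, and 11.2% in fresh pool 3, the lowest. The part of these traits of the libraries in the results below was not tested, beyond the other scalings given with them.

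In the members with the largest ranges, single pools differed by large factors in opposite directions. Gene 105324156 had the largest range, 5.03, with a counting error of 0.53. Its level was 0.397, 4.50 and 0.821 CPM in the fresh larvae of pools 1, 2 and 3. In exposed larvae it was 0.381, 3.48 and 1.10 CPM, so that pool 2 was again the highest and pool 1 the lowest. In cryopreserved larvae it was 6.37, 1.89 and 2.19 CPM, with pool 1 now the highest. The cryopreserved minus fresh difference was 3.81, -1.22 and 1.35 in pools 1, 2 and 3. The fresh value of pool 1 rests on 11 counts and its cryopreserved value on 138.

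Gene 105325929 is the other of the named members whose mean difference over the pools was above 0. It had 14.1, 19.3 and 24.7 CPM in fresh larvae, 5.59, 16.9 and 24.3 CPM in exposed larvae and 117, 11.8 and 57.2 CPM in cryopreserved larvae. Pools 1 and 3 were thus higher after cryopreservation and pool 2 lower, with differences of 3.05, -0.71 and 1.21. With between 205 and 2541 counts per library, its counting error was small, 0.14 on a range of 3.76. Its exposed larvae of pool 1 were also lower than its fresh larvae, by a difference of -1.33, while those of pools 2 and 3 differed by -0.19 and -0.02.

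Both named members with a mean difference below 0 had their lowest value in the cryopreserved larvae of pool 2. Gene 105344175 had 4.51, 5.43 and 15.8 CPM in the fresh larvae of pools 1, 2 and 3 and 3.65, 5.67 and 16.1 CPM in exposed larvae. After cryopreservation it had 10.3, 0.598 and 5.94 CPM, differences of 1.19, -3.06 and -1.40. Gene 105321899 was highest in pool 2 before freezing, with 2.16, 6.98 and 2.09 CPM in fresh and 2.94, 7.00 and 2.14 CPM in exposed larvae. After cryopreservation pool 2 was the lowest, with 3.19, 0.598 and 1.63 CPM. Each of these genes had 12 counts in the cryopreserved library of pool 2. Their counting errors were 0.46 and 0.50 on ranges of 4.24 and 3.96.

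All 4 of these genes had their highest difference in pool 1 and their lowest in pool 2. The member with the largest range was therefore also read in each of the other 5 orders, a choice made after the values were seen. Gene 105338646, with its highest difference in pool 3 and lowest in pool 1, had 20.8, 6.21 and 2.50 CPM in fresh larvae and 22.4, 5.97 and 3.67 CPM in exposed larvae of pools 1, 2 and 3. In cryopreserved larvae it had 3.23, 5.03 and 5.08 CPM. The pools were closer together than before freezing, and pool 1 went from the highest to the lowest.

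Gene 105317367, with its highest difference in pool 1 and lowest in pool 3, began with a single high pool. It had 1.44, 1.59 and 22.0 CPM in fresh and 0.327, 0.909 and 23.0 CPM in exposed larvae. Cryopreserved larvae had 11.7, 1.05 and 14.7 CPM, so that pool 1 joined pool 3 and pool 2 stayed low. The differences were 2.96, -0.577 and -0.582 in pools 1, 2 and 3, with a counting error of 0.26 on the range. Pools 2 and 3 were thus nearly tied for the lowest difference. Its exposed larvae of pool 1 rest on 12 counts, against 40 in fresh and 253 in cryopreserved larvae.

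Gene 105345739 had its highest difference in pool 2 and its lowest in pool 1. It had 14.3, 12.4 and 9.99 CPM in fresh larvae, 12.6, 15.1 and 3.06 CPM in exposed larvae and 2.72, 19.9 and 3.74 CPM in cryopreserved larvae. In pool 3 the lower level was therefore already present after exposure. Its exposed minus fresh difference was -1.69 in pool 3, -0.19 in pool 1 and 0.29 in pool 2.

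Gene 105326073, highest in difference in pool 2 and lowest in pool 3, had 2.71, 1.20 and 1.68 CPM in fresh, 3.35, 1.06 and 2.14 CPM in exposed and 2.03, 4.03 and 0.731 CPM in cryopreserved larvae. Pool 2 went from the lowest of the pools in fresh and exposed larvae to the highest. Gene 105335304, highest in pool 3 and lowest in pool 2, had 1.84, 5.01 and 0.489 CPM in fresh, 2.02, 4.76 and 0.235 CPM in exposed and 1.29, 2.29 and 1.85 CPM in cryopreserved larvae. Its lowest value rests on 12 counts. Here, the pools kept apart before freezing came to lie close together.

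**Figure D1:**
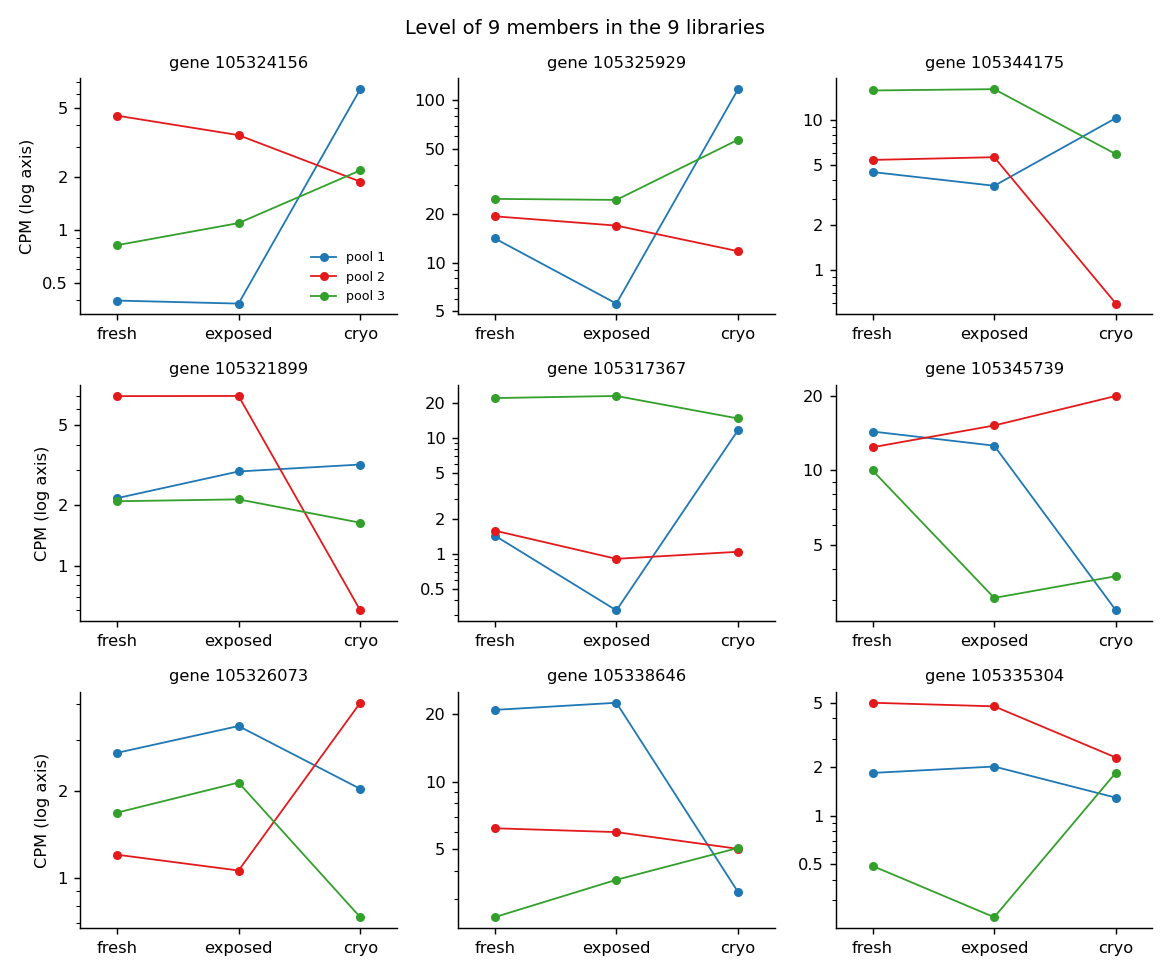
Level of 9 members in CPM (log axis) in fresh, exposed and cryopreserved larvae, 1 panel per gene and 1 coloured line per pool, each point 1 library. The lines of the pools run nearly level from fresh to exposed larvae in most panels and cross between exposed and cryopreserved larvae, as in gene 105324156, where pool 1 went from 0.381 to 6.37 CPM.

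A deeply counted member can be read with little counting error. Gene 105347520, chosen after its values were seen as the member with the highest level in fresh pool 1, had 549, 137 and 53.4 CPM in fresh larvae of pools 1, 2 and 3. In exposed larvae it had 586, 170 and 65.2 CPM. In cryopreserved larvae it had 131, 140 and 84.9 CPM, so that pool 1 came down to the level of pool 2 while pool 3 was somewhat higher than before. The differences were -2.07, 0.03 and 0.67, with a counting error of 0.05 on the range of 2.74.

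The 3 pools did not take equal parts in the list. In 75 of the 150 members (50%), the highest difference was in pool 1 and the lowest in pool 2. This order was found in 38.9% of the 478 opposed genes and in 22.7% of the eligible genes. The order with pool 3 highest and pool 1 lowest followed with 31 members (20.7%), a share near that of the eligible genes (19.8%). The reverse of the leading order, highest in pool 2 and lowest in pool 1, was found in 11 members (7.33%), against 19.8% of the eligible genes. The other 3 orders had between 9 and 14 members each (6% to 9.33%, against 11.2% to 13.8% of the eligible genes). Pool 2 had the lowest difference in 84 members (56%), against 46.4% of the opposed genes and 35.4% of the eligible genes. For pool 1 this count was 42 (28%, against 29.1% and 39.6%) and for pool 3 it was 24 (16%, against 24.5% and 25%). The largest difference in size lay in pool 1 for 85 members (56.7%), and pool 1 also led in the eligible genes (43.5%). It lay in pool 2 for 52 members (34.7%, against 29.6%) and in pool 3 for 13 (8.67%, against 26.9%). These shares describe the libraries and carry no test, since the same libraries chose the members.

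With libraries scaled by their size alone, in place of TMM, 109 members chosen in the same way had the lowest difference in pool 2 and only 12 in pool 1. That scaling moved the median difference of the eligible genes to -0.07, -0.28 and -0.26 in pools 1, 2 and 3, while it lay between -0.04 and -0.0017 with TMM. The median differences of the members, 0.65, -0.71 and -0.04 in pools 1, 2 and 3, are to be read against these. The leading place of pool 2 among the lowest held under both scalings, and the count for pool 1 did not.

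**Figure D2:**
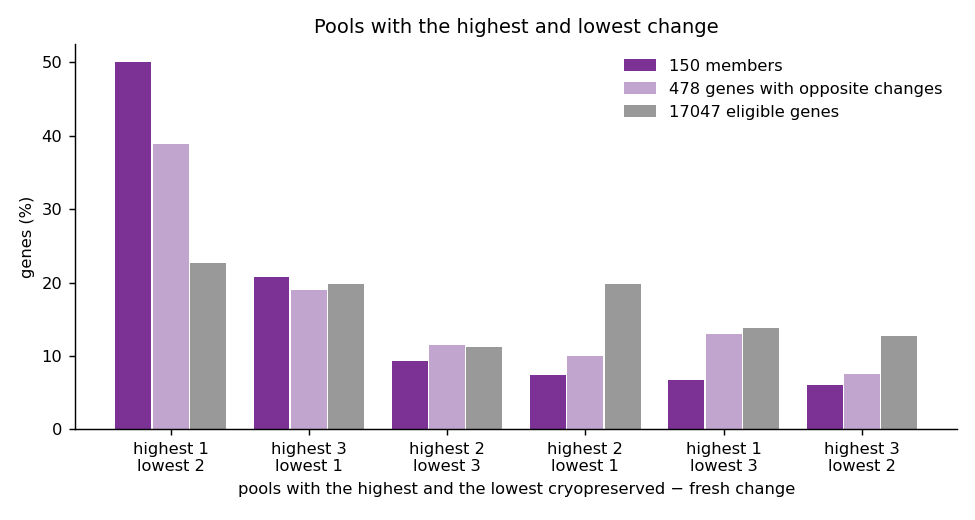
Share of genes (%) with each combination of the pool of highest and the pool of lowest cryopreserved minus fresh difference, for the members, the 478 opposed genes and the 17047 eligible genes. The combination of highest in pool 1 and lowest in pool 2 holds 50% of the members, against 22.7% of the eligible genes.

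Most members were opposed in a pair of pools only. In 109 members (72.7%, against 82.4% of the 478 opposed genes) 1 pool was over 0.5, 1 under -0.5 and the remaining pool between. Another 25 members (16.7%, against 9.62% of the opposed genes) were higher in 1 pool and lower in both others. The remaining 16 (10.7%, against 7.95% of the opposed genes) were higher in 2 pools and lower in 1. The 75 members highest in pool 1 and lowest in pool 2 had median differences of 1.13 in pool 1, -1.13 in pool 2 and -0.19 in pool 3. The 31 members highest in pool 3 and lowest in pool 1 were led by pool 1, with medians of -1.46, -0.0051 and 0.67 in pools 1, 2 and 3. The 14 members highest in pool 2 and lowest in pool 3 had medians of 0.04, 0.97 and -1.08. For the 11 members highest in pool 2 and lowest in pool 1 the medians were -1.31, 0.76 and 0.13. The 10 members highest in pool 1 and lowest in pool 3 had medians of 1.20, -0.04 and -0.84, and the 9 highest in pool 3 and lowest in pool 2 had -0.46, -1.19 and 0.68.

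**Figure D3:**
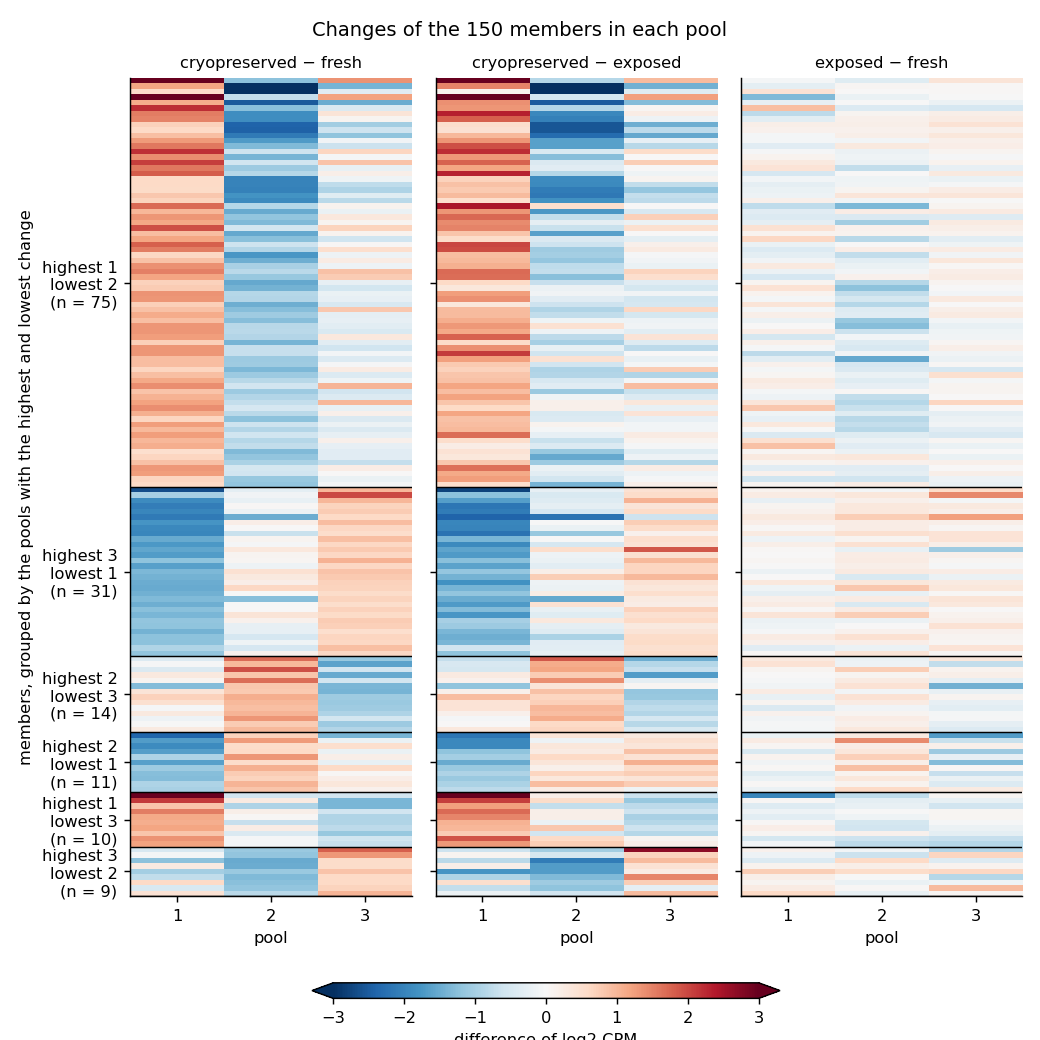
Difference of log2 CPM in each pool for the 150 members (rows), grouped by the pools with the highest and lowest cryopreserved minus fresh difference, in colours that end at 3 in either direction. The panels of cryopreserved minus fresh and cryopreserved minus exposed look alike, while exposed minus fresh is pale, with a median range over the pools of 0.54 against 2.18 and 1.95.

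Across all 17047 eligible genes the pools went mostly together. The cryopreserved minus fresh differences had a Pearson r of 0.61 between pools 1 and 2, 0.68 between pools 1 and 3 and 0.77 between pools 2 and 3. Each pool has its own libraries, the points are genes and share the depth of these libraries, and the values are a description. The members are the exception to this by their choice, with r of -0.45, -0.32 and -0.01 between the same pools.

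The levels behind the differences were read for the pool of highest and the pool of lowest difference of each member. The gap between these pools, in log2 CPM of the former minus the latter, shows whether they were apart before freezing or came apart after it. In 108 members the pools crossed, with the pool of highest difference below the other in fresh larvae and above it in cryopreserved larvae. Their median gap was -0.87 in fresh and 1.25 in cryopreserved larvae. In 25 members (16.7%, against 30.3% of the eligible genes) the gap widened, with a median of 0.68 in fresh and 2.83 in cryopreserved larvae. In the remaining 17 (11.3%, against 21.1% of the eligible genes) it narrowed without crossing, from -3.20 to -0.62. Crossing made up 72% of the members, 66.3% of the opposed genes and 48.6% of the eligible genes. It was favoured by the rule, since the range of a member is its gap in cryopreserved larvae minus its gap in fresh larvae.

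The exposed larvae entered the choice of members only through the count limits and the scaling. They had a median gap close to that of the fresh larvae in each class. The median gap in exposed larvae was -0.68 for the members that crossed, 0.77 for those that widened and -2.97 for those that narrowed. In 129 of the 150 members (86%) the gap had the same sign in fresh and exposed larvae, which is near the share of the eligible genes, 84%. The order of all 3 pools was the same in fresh and exposed larvae for 111 members (74%), against 61% of the eligible genes. The rule favoured genes whose pools lay apart in fresh larvae, so part of this excess may be built in.

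Gene 109617471 had the largest range of the members whose gap widened, with its highest difference in pool 1 and lowest in pool 3. Its level was 2.53, 6.98 and 1.43 CPM in fresh, 2.59, 5.70 and 1.22 CPM in exposed and 11.1, 8.37 and 0.516 CPM in cryopreserved larvae of pools 1, 2 and 3. Pool 1 was thus slightly above pool 3 before freezing and far above it afterwards. Of the members that narrowed, gene 105317367, given above, had the largest range. It falls in this class only because pool 3 was lowest by a narrow margin over pool 2. Against pool 2, pool 1 crossed from below in fresh larvae (1.44 and 1.59 CPM) to above in cryopreserved larvae (11.7 and 1.05 CPM).

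**Figure D4:**
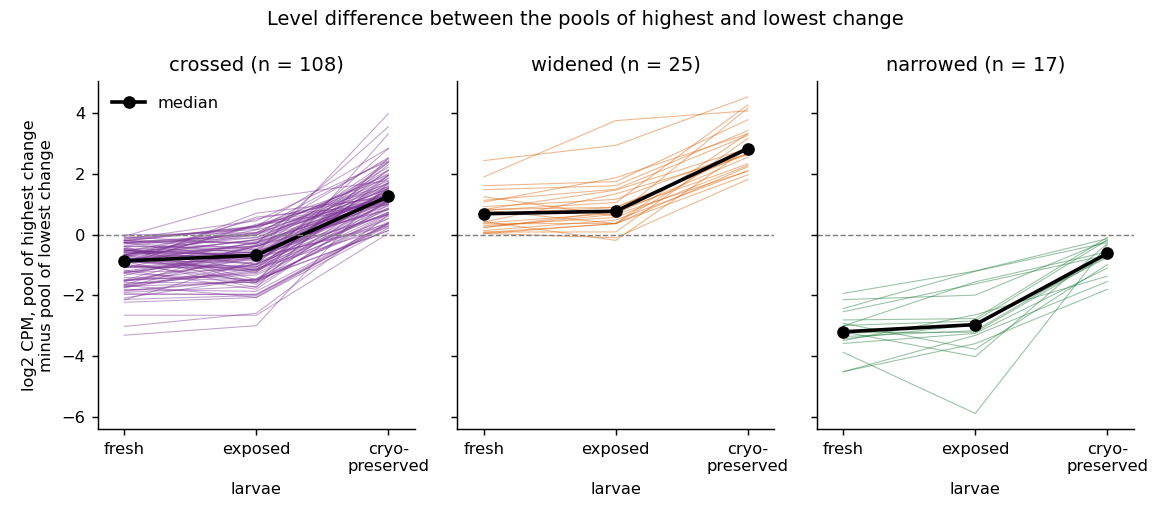
Gap in log2 CPM between the pool of highest and the pool of lowest cryopreserved minus fresh difference, in fresh, exposed and cryopreserved larvae, 1 thin line per member and a black line for the median. The medians hardly differ between fresh and exposed larvae (-0.87 and -0.68 in the 108 members that crossed) and lie higher in cryopreserved larvae (1.25).

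With the exposed larvae in place of the fresh larvae, 92 of the 150 members (61.3%) were again opposed between pools, over 0.5 in 1 pool and under -0.5 in another, against 2.6% of the eligible genes. Both differences use the same cryopreserved libraries, so part of this is shared. The range of cryopreserved minus exposed was over 1 in 143 members (95.3%), against 17.7% of the eligible genes, and its median was 1.95, against 0.55. The share again opposed was similar at both depths, with 43 of the 72 members that averaged 200 counts or more (59.7%) and 49 of the 78 members below it (62.8%). Among the eligible genes these shares were 1.56% and 6.1%. With pool 1 left out, 28 members were opposed between pools 2 and 3, with pool 2 left out 48, and with pool 3 left out 52. These counts were not made for the eligible genes, so they have no share to be read against.

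The exposed larvae can also be set against the fresh larvae of the same pool. Exposed minus fresh had a median range over the pools of 0.54 in the members and 0.25 in the eligible genes, and it stayed within 0.5 in all 3 pools for 91 members (60.7%), against 88.7%. By pool, 135, 113 and 129 members were within 0.5 in pools 1, 2 and 3, and pool 2 also had the fewest among the eligible genes, with 16028 against 16379 and 16464. This difference shares the fresh libraries with the rule, so a wider range than in the eligible genes is partly built in. That it is smaller than the cryopreserved minus fresh range is built in as well, since the members were chosen for the latter.

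**Figure D5:**
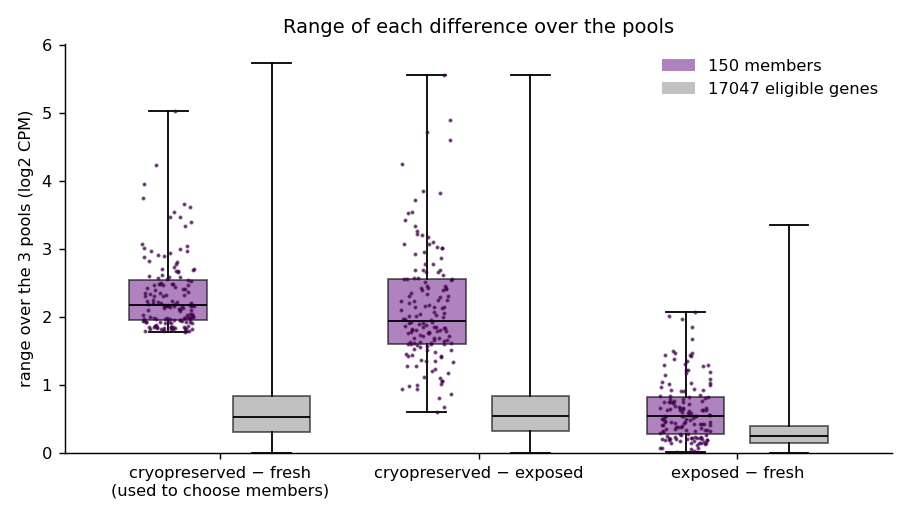
Range over the 3 pools of each difference of log2 CPM, for the members (purple, 1 point each) and the eligible genes (grey). Boxes give the quartiles and the median, and whiskers the lowest and highest gene. The members' median is 1.95 for cryopreserved minus exposed and 0.54 for exposed minus fresh, against 0.55 and 0.25 in the eligible genes.

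The pools were opposed in exposed minus fresh as well for 5 members (3.33%, against 0.299% of the eligible genes), named here after their values were seen. In genes 105339726, 105338513, 105345655, 105340511 and 105328518 the mean count was between 55.9 and 118, below the median of the list, 188. Gene 105339726 had 2.63, 0.893 and 1.43 CPM in fresh, 3.16, 2.48 and 0.882 CPM in exposed and 0.785, 2.24 and 1.25 CPM in cryopreserved larvae of pools 1, 2 and 3. Its pool 2 rests on 23 counts in fresh larvae and was as high in exposed as in cryopreserved larvae. The cryopreserved minus exposed range of genes 105345655, 105340511 and 105328518 was 0.98, 0.69 and 0.81, below their cryopreserved minus fresh ranges of 2.44, 1.92 and 1.91. In these genes the exposed larvae differed from the fresh larvae in the same directions in pools 1 and 2 as the cryopreserved larvae did. Both differences subtract the same fresh libraries, which the rule used. This agreement and the excess of opposed members over the eligible genes are therefore partly built in, and a response to exposure was not tested.

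The exposed larvae also gave a measure of how far the pools differed before freezing. They came from the same pools as the fresh larvae, whose levels the rule used, so a wider range is partly built in. In fresh larvae the level range over the pools had a median of 1.24 in the members and 0.50 in the eligible genes. The range of the level over the 3 exposed libraries had a median of 1.33 on the log2 scale in the members and 0.54 in the eligible genes. For genes that averaged 200 counts or more the medians were 1.47 and 0.50, and below it 1.21 and 0.76. In the edgeR quasi-likelihood fit of the 6 fresh and exposed libraries, with condition and pool as factors, 139 of the 150 members (92.7%) differed between pools at an adjusted p-value under 0.05. The same call was made for 66.8% of the 23052 genes tested and for 72.6% of the eligible genes. The fresh libraries in this fit were also used by the rule, so the share is a description.

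A pool's response can be tested only if the fresh and exposed libraries of a pool are taken as repeated unfrozen libraries of it. This leaves 3 residual degrees of freedom. With 1 frozen library per pool, they measure the spread between unfrozen libraries only. A departure of a single frozen library cannot be told apart from a response of its pool. In that edgeR quasi-likelihood fit, 2482 of the 23052 genes (10.8%) had a difference between frozen and unfrozen larvae that varied between pools at an adjusted p-value under 0.05. Of the members, 111 (74%) were among them. The rule chose the members on this same contrast, and nothing is read from their count. DESeq2 called 2426 genes and 101 members. Leaving out a cryopreserved library takes its pool out of the test, which then compares the other pools only. Those counts are therefore not of the same test as the counts with all libraries. Without the cryopreserved library of pool 1, 458 genes and 32 members were called. Without that of pool 2 or pool 3 there were 1858 and 2193 genes, with 86 and 95 members. Without the exposed library of pool 1, 826 genes and 68 members were called, against 2025 and 1854 genes with 114 and 110 members without that of pool 2 or pool 3. Among the eligible genes alone, 13.8% were called with all libraries.

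The members were also read in the comparisons of conditions over all 9 libraries. Between cryopreserved and fresh larvae, a gene was called at an adjusted p-value under 0.05 with a log2 fold change beyond 1.5 in size in edgeR's quasi-likelihood test. This holds for 2.2% of the genes tested and for 0 members. Before adjustment, 0 members and 18.8% of the genes had a p-value under 0.05, and DESeq2 called 714 genes and 0 members. With the pool as a block the call was made for 3.98% of the genes and again for 0 members. This follows from the choice of genes whose pools go in opposite directions. Between exposed and fresh larvae 0 genes (0%) and 0 members were called, with 0 members and 0.282% of the genes at an unadjusted p-value under 0.05, and DESeq2 called 2 genes and 0 members.

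Between cryopreserved and exposed larvae, 3.01% of the genes and 0 members were called by edgeR, with 1 member and 21.2% of the genes at an unadjusted p-value under 0.05. With the pool as a block, 4.85% of the genes and 1 member were called. This member, gene 105339946, named after its values were seen, had 492, 346 and 21.5 CPM in fresh, 605, 573 and 50.1 CPM in exposed and 114, 124 and 32.5 CPM in cryopreserved larvae of pools 1, 2 and 3. Pools 1 and 2 were far lower after cryopreservation than in either unfrozen condition, whereas pool 3, low throughout, lay between its fresh and exposed values. The log2 fold change against exposed larvae was -1.65 with the block (edgeR adjusted p = 0.0269) and -2.18 without it (adjusted p = 0.324), and cryopreserved larvae were lower than exposed larvae in all 3 pools. DESeq2 without the block called 891 genes and a different member, gene 105325929, with a log2 fold change of 2.00 (adjusted p = 0.0327), higher in 2 of 3 pools. Its cryopreserved minus exposed difference was 4.38, -0.52 and 1.23 in pools 1, 2 and 3. With all libraries edgeR did not call it (adjusted p = 0.165). With the cryopreserved library of pool 2 left out, the only pool where it was lower, edgeR called it among 617 genes. Its log2 fold change was then 2.48 (edgeR adjusted p = 0.046).

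The members were less deeply counted than the genes they were drawn from, which bears on their ranges. Their mean count per library, with its median of 188, compares with a median of 576 in the eligible genes, and 72 of the members (48%) reached 200, against 76.9%. The counting error of a range, from the counts of the 4 libraries that form it, had a median of 0.28 in the members and 0.14 in the eligible genes. Reads of the same molecule are counted separately, so this error covers counting alone. Every member's range was at least 3.09 times its counting error, with a median of 7.96 times, against 3.51 times in the eligible genes. Ranges over 5 times the error were found in 121 members (80.7%), against 33.6% of the eligible genes. The members were chosen for their large ranges, so a high ratio is partly built in. Salmon shares reads among similar transcripts, which leaves estimates that are not whole numbers. At least 1 such estimate was found in 113 members (75.3%), against 87.9% of the eligible genes. Genes that share reads with a close copy could not be told apart from others without an annotation.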

How the data were processed

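The members and the lists of genes were chosen with earlier results of these data known. Reads were cleaned by the authors and aligned to the genome of Crassostrea gigas, and expression was brought to the gene level with Salmon 1.1. The deposited table holds estimated counts of 28372 genes in 9 libraries, neither normalized nor filtered. Of the values, 38.2% were not whole, and all were rounded. Columns were assigned by the position that the labels give for each sample. Log2 CPM values were computed in edgeR 4.0.16 under R 4.3.3 with TMM factors over all genes and a prior count of 2, and CPM values without a prior count. Genes entered a test with 5 counts or more in 3 or more libraries, which left 23052. They were tested by quasi-likelihood in edgeR, with p-values adjusted after Benjamini and Hochberg over all genes tested and condition as the only factor unless stated. DESeq2 1.42.0, other scalings, filters and prior counts, the pool as a block and each library left out were the alternatives. Scripts were tested on simulated data.

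The study's methods state that each pool went through the 3 conditions. Libraries of the same number departed from their group means together, with r from 0.51 to 0.86 over 9 pairs, so the replicate numbers were taken as the pools. No replicates of a condition agreed within sampling noise (chi-square per degree of freedom of at least 77.2), and each library was counted once. The floor of 3 counts corresponds to between 0.0586 and 0.149 CPM, and all members had at least 11 counts in every library.

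The genes named are the 2 members with the largest range whose mean difference over the pools is above 0 and the 2 with the largest range whose mean is below 0. The others were chosen after their values were seen, as stated with each.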

Additional observations from a re-analysis of the deposited data

How the results depend on the processing

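The list changed with the pools and with the scaling, but the 2 changes cannot be ranked. In 109 members only 1 pool was over 0.5 and 1 under -0.5. Leaving out either of these pools removes such a gene by the rule. Chosen over 2 pools, the list shared between 38 (without pool 1) and 92 (without pool 3) genes with the 150 members. With a mean count of 200 required it shared 72, and with library size only 111. The count of members lowest in pool 1 was 12 with library size only, against 42. The members opposed between pools in cryopreserved minus exposed larvae numbered between 28 and 52 with 1 pool left out. They numbered 17 with 1 in place of 0.5 each way, and 130 with 0.25. None of these counts was made for the eligible genes. With the pool as a replicate block, 1 member was called between cryopreserved and exposed larvae, against 0. That was gene 105339946, which was lower, while DESeq2 called gene 105325929 in its place, which was higher. With 1 library left out, between 0 and 1 members were called. The block changed no other call of a member. The members whose difference varied between pools numbered between 32 and 114 with 1 library left out (458 to 2193 of all genes), and between 101 and 118 with another scaling, filter or tool (2114 to 2809 of all genes). Among the fits with 1 library left out, those without a cryopreserved library compare the remaining pools only. No alternative called a member between cryopreserved and fresh or exposed and fresh larvae. Counts under 200 limit single values most, and 78 members lay below it.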
